A study of Mus musculus with 22 samples.

Results

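Igh sequences of mouse kidney B cells that were assigned a D segment of the Ighd3 or Ighd4 family are described here. The members were all sequences whose assigned D name began with IGHD3- or IGHD4-, whatever the allele, and they were 2865 of the 17178 sequences in 22 libraries, or 16.7%. The Ighd3 family held 1699 sequences under 3 names, with 425 of Ighd3-1, 728 of Ighd3-2 and 546 of Ighd3-3, and the Ighd4 family held 1166 sequences under 1 name, Ighd4-1. A clonotype was a distinct junction sequence with the same V and J segments, and over the libraries the members made up 1183 of 6754 clonotypes, or 17.5%, with 612 of Ighd3 and 571 of Ighd4. The families Ighd2 and Ighd1 were larger, at 41.5% and 35.9% of clonotypes, and 2.69% of clonotypes had no D segment assigned.

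Wild-type female C57BL/6 mice of 8 to 10 weeks received uropathogenic E. coli (UPEC, 5 mice) or PBS (6 mice) into the bladder, 2 times each, and kidneys were taken on day 56. An anti-CD45 antibody injected into the circulation 3 minutes before death separated intravascular B cells, which it labelled, from extravascular B cells, which it did not, and B cells of each kind were sorted from each mouse, so that every mouse gave a matched pair of libraries. The kidneys were not flushed with buffer, and the label is the basis of the 2 compartments. The tables hold Igh sequences alone, so the sort could not be checked against other marker genes here. Libraries held 244 to 2134 sequences from 936 to 18956 reads, and extravascular libraries of PBS mice were the deepest, with a median of 1286 sequences against 478 in the intravascular libraries of the same mice.

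An immunoglobulin heavy chain variable region is assembled from 1 V, 1 D and 1 J segment by the RAG recombinase, which cuts at recombination signal sequences, each a heptamer and a nonamer set apart by a spacer. Exonucleases trim the opened ends, short palindromic P nucleotides are left from hairpin opening, and terminal deoxynucleotidyl transferase adds untemplated N nucleotides at both joints. The joined stretch is the CDR3, the most variable loop of the antibody, and D segments differ in how many bases they can give to it. The Ighd4-1 segment, long known as DQ52, is the D segment nearest to the J segments and one of the shortest. Ighd3 and Ighd4 segments are shown first because their length and letters set what can be recognised of them after trimming.

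In the GRCm38 reference, Ighd4-1 lies on the minus strand of chromosome 12 at chr12:113430528-113430538, 694 bases from the start of Ighj1, and is 11 nt long. Ighd3-2 lies at chr12:113448214-113448229, is 16 nt long and is 18380 bases from Ighj1. Ighd3-1 lies far upstream at chr12:113525313-113525329, is 17 nt long and is 95479 bases from Ighj1. GENCODE annotates all 3 as D genes, each a single exon between its recombination signals. Ighd3-3 was matched to no segment of that annotation, so no germline sequence is shown for it. The sequences below run 5′ to 3′ on the coding strand, with the D segment in capitals and the 28 bases on each side, which hold a recombination signal, in lower case.
Ighd4-1: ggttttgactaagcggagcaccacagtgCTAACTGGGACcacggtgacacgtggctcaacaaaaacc
Ighd3-2: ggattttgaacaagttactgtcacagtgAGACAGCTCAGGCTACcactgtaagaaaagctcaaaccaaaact
Ighd3-1: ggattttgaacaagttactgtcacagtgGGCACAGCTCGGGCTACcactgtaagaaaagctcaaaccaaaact
All 3 segments had the heptamer cacagtg directly before the D segment, which no other of the 20 annotated D segments had at that place. The heptamer directly after the D segment was cacggtg for Ighd4-1, in 1 of 20 segments, and cactgta for Ighd3-1 and Ighd3-2, in 2 of 20. The 28 bases on either side of Ighd3-1 and Ighd3-2 were the same letters, and only the coding bases between them differed. One of the 3 forward reading frames of Ighd4-1, the one that opens at its second base, holds a stop codon (taa), and no frame of Ighd3-1 or Ighd3-2 holds one.

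The D-REGION, which is the stretch of the junction that the annotation program assigned to the D segment, was 4 to 17 nt long among the members. These lengths are bounded by the germline segments and are a description, with no test. Counting each clonotype once per mouse (609 Ighd3 and 566 Ighd4 clonotypes), Ighd4-1 had a median D-REGION of 8 nt out of 11, and 21 of 567 clonotypes (3.70%) kept the whole segment. Ighd3-2 had a median of 12 nt out of 16, and 17 of 288 clonotypes (5.90%) kept the whole segment. The number of clonotypes differs by 1 to 3 between such counts, because a few clonotypes held sequences with different D names. Ighd3-1 had a median of only 6 nt out of 17, and Ighd3-3 also had a median of 6 nt. A D-REGION under 8 nt was found in 79.7% of Ighd3-1 clonotypes, 79.1% of Ighd3-3 clonotypes, 47.2% of Ighd4-1 clonotypes and 15.9% of Ighd3-2 clonotypes. It was found in 18.8% of clonotypes of the Ighd1 and Ighd2 families, so Ighd3-2 was close to those families and the other 3 names had far more short matches.

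**Figure D1:**
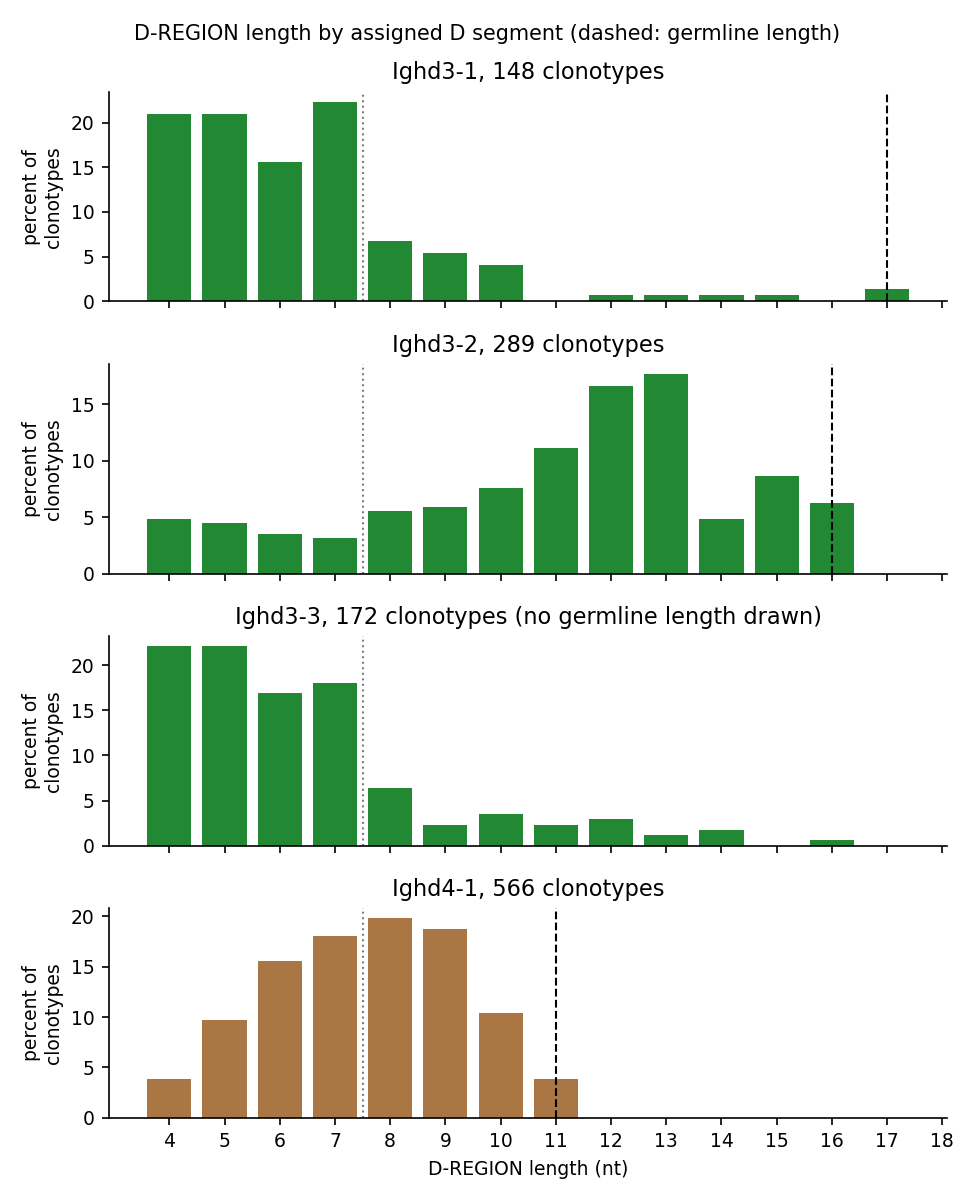
Length of the D-REGION in nt (horizontal axis) against the percent of clonotypes (vertical axis) for each assigned D segment, each clonotype counted once per mouse. The dashed line marks the germline length (17 nt for Ighd3-1, 16 nt for Ighd3-2, 11 nt for Ighd4-1, none drawn for Ighd3-3) and the dotted line separates lengths under 8 nt. Ighd3-2 peaks near its full length, while Ighd3-1 and Ighd3-3 lie mostly between 4 and 7 nt.

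The letters of the D-REGION showed how securely each name was given. The D-REGION was found letter for letter in the GRCm38 segment of the same name in 253 of 288 clonotypes of Ighd3-2 (87.8%), 453 of 567 of Ighd4-1 (79.9%) and 78 of 145 of Ighd3-1 (53.8%). For Ighd3-3 the check could not be made. The most frequent D-REGIONs of Ighd4-1 were aactgggac in 59 clonotypes, ctgggac in 58 and actgggac in 50, all ending at the last base of the segment. The most frequent of Ighd3-2 was cagctcaggctac in 22 clonotypes, which also reaches the last base of its segment. The most frequent of Ighd3-1 were tcggg in 17 clonotypes, cggg in 12 and gggc in 12, and those of Ighd3-3 were aggg in 25 clonotypes and gggac in 24. The gggac of Ighd3-3 is also the end of the Ighd4-1 segment, and 21.8% of Ighd3-3 clonotypes had a D-REGION that occurs in a D segment of another family, against 1.38% for Ighd3-1, 3.82% for Ighd3-2 and 0.529% for Ighd4-1. Only the 20 annotated GRCm38 segments were searched. Several D names of these data, such as Ighd2-13, have no segment there, so these percentages are lower bounds. Sequences of different D names were held by 9 of 1175 member clonotypes. A clonotype with a single sequence cannot hold different names, and such clonotypes made up 79.7 to 84.8% under each name. The count therefore says little about how secure the names were. Allele Ighd3-2*02 made up 97.8% of Ighd3-2 sequences, and Ighd4-1*01 made up 91.9% of Ighd4-1 sequences.

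Both segments were trimmed more at the 5′ end, which joins V, than at the 3′ end, which joins J. Over the exact matches, Ighd4-1 had lost a mean of 2.60 nt at the 5′ end and 1.03 nt at the 3′ end, and its last base was kept in 229 of 453 clonotypes while its first base was kept in 69. Ighd3-2 had lost 2.91 nt and 2.02 nt, and kept its last base in 105 of 253 clonotypes and its first in 45. Ighd4-1 was read in frame 1 in 173 clonotypes (38.2%), in frame 2 in 111 (24.5%) and in frame 3 in 169 (37.3%), where frame 1 opens a codon at the first base of the segment. In none of the 111 clonotypes in frame 2 was the stop codon kept, since trimming had removed its first letter or more. The authors had removed sequences that lacked a complete reading frame, so this count may follow from that filter. Ighd3-2 was read mostly in frame 2, in 132 clonotypes (52.2%), against 58 in frame 1 and 63 in frame 3. Every member clonotype had a CDR3 length divisible by 3, as had every clonotype with another D segment, so the frames are those of in-frame sequences.

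The share of each family in a library was taken over sequences and over clonotypes. A sequence share counts distinct consensus sequences, so more B cells of a clone, more of its RNA per cell and more mutation within it cannot be told apart. By sequence, Ighd3 held 4.03%, 7.72%, 1.99%, 21.1%, 35.6% and 20.6% of the extravascular libraries of PBS mice 1 to 6. The intravascular libraries of the same mice held 11.7%, 8.98%, 10.8%, 11.4%, 11% and 5.07%. The values of mice 4, 5 and 6 outside the vessels lay above all intravascular values and those of mice 1 to 3 lay below the intravascular values of mice 1 to 5, so the extravascular libraries were far more spread out (mean 15.2% ± 12.9, SD, n = 6, against 9.84% ± 2.52). The Wilson 95% interval for the highest library was 32.3 to 39.1% and that for the lowest 1.43 to 2.77%. Such intervals cover no more than counting error and take sequences as independent draws. Sequences of a clone are not independent, so the intervals are too narrow even for counting error. In UPEC mice 1 to 5 the extravascular libraries held 8.61%, 1.31%, 4.45%, 14.4% and 3.98%, and the intravascular libraries 9.47%, 7.78%, 8.10%, 15.0% and 7.69%. Ighd3 was lower in the extravascular library in 5 of 5 UPEC mice, by a mean of 3.07 percentage points ± 2.40 (SD), with an exact two-sided Wilcoxon signed-rank p of 0.0625, the smallest that 5 pairs allow, and an adjusted p of 0.458. It was -1.93 points with at least 3 reads and -1.29 points with D-REGIONs under 8 nt counted as no D, lower in 4 of 5 mice each, and -1.65 points weighted by reads, lower in 3 of 5 mice. Of the 18 D segments with at least 10 clonotypes in these libraries, 11.1% were lower by sequence in all 5 mice. In PBS mice the difference was 5.34 points ± 13.5, in opposite directions in 3 and 3 mice (exact p = 0.438, adjusted p = 0.963). It was 1.50 points without PBS mouse 5 and also 1.50 points when sequences were weighted by reads, and 1.78 points when D-REGIONs under 8 nt were counted as no D.

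By sequence, Ighd4 held 4.50%, 4.28%, 1.58%, 3.03%, 5.07% and 16.4% of the extravascular libraries of PBS mice 1 to 6 and 5.52%, 14.5%, 9.24%, 6.35%, 6.98% and 6.22% of their intravascular libraries. Mouse 6 was the only PBS mouse with the higher share outside the vessels. The paired difference was -2.32 points ± 7.05 (exact signed-rank p = 0.312, adjusted p = 0.852). It was -4.82 points without mouse 6 and -0.748 points without mouse 2. Without the most frequent clonotype of each library it was -3.25 points, lower in 6 of 6 mice (exact p = 0.0312, adjusted p = 0.229). In UPEC mice 1 to 5 Ighd4 held 11.1%, 5.98%, 12.6%, 6.46% and 2.46% of extravascular and 8.91%, 8.07%, 8.62%, 7.04% and 13.3% of intravascular libraries, with a difference of -1.47 points ± 5.73 in mixed directions (exact p = 1.00). Between treatments, neither family passed the test in either compartment by sequence or by clonotype, with exact two-sided Mann-Whitney p between 0.329 and 0.792. The change with challenge of the difference between compartments was -8.41 points for Ighd3 (exact permutation p = 0.206) and 0.854 points for Ighd4 (exact permutation p = 0.838), over all 462 assignments of the mice. The Ighd3 value was -4.57 points without PBS mouse 5 and -3.15 points weighted by reads.

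**Figure D2:**
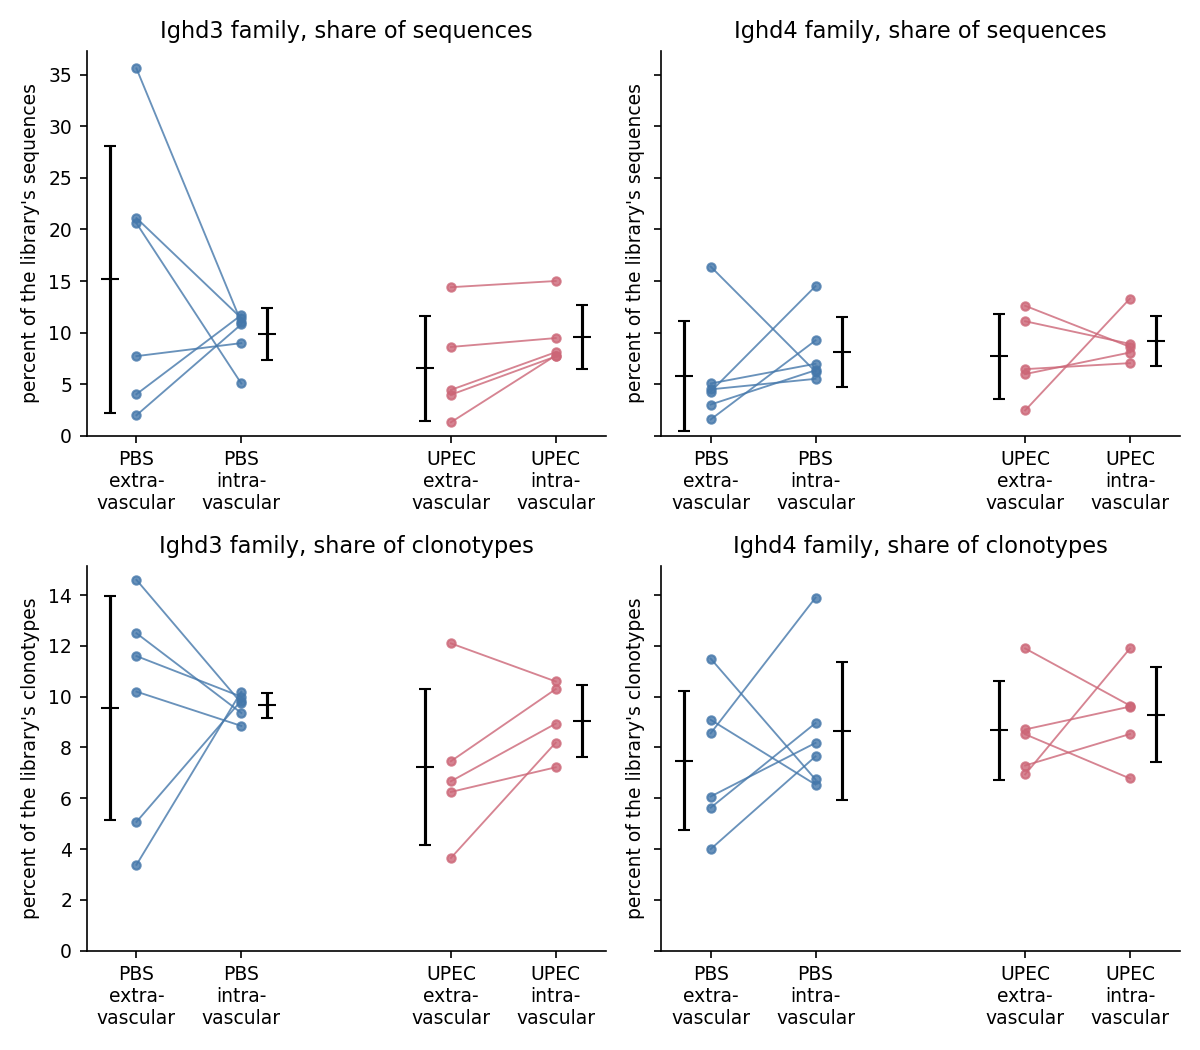
Share of the Ighd3 (left) and Ighd4 (right) families in percent of a library's sequences (top) and clonotypes (bottom), for extravascular and intravascular libraries of PBS (blue, 6 mice) and UPEC (red, 5 mice) mice. Lines join the 2 libraries of a mouse, and black bars give the mean and SD. By sequence the extravascular Ighd3 values of PBS mice run from 1.99 to 35.6%, and by clonotype from 3.38 to 14.6%.

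Counted by clonotype, the spread was smaller and the compartments lay close together. Ighd3 made up 9.55% ± 4.41 of extravascular and 9.67% ± 0.490 of intravascular clonotypes in PBS mice (SD, n = 6; difference -0.115 points, exact signed-rank p = 1.00), and 7.22% ± 3.07 and 9.05% ± 1.41 in UPEC mice (n = 5; difference -1.83 points, lower in 4 of 5 mice, exact p = 0.188). The UPEC difference was -1.15 points without UPEC mouse 2 and -2.65 points without UPEC mouse 4. It was -0.353 points with at least 3 reads and -0.281 points with D-REGIONs of at least 8 nt, higher in 2 of 5 mice each. Intravascular Ighd3 shares by clonotype lay between 8.85 and 10.2% in the 6 PBS mice, whereas the extravascular shares of the same mice ran from 3.38 to 14.6%. They rest on 25 to 40 Ighd3 clonotypes a library inside and 11 to 41 outside the vessels. Counting error was not set against these ranges, and the difference in spread was not tested. Ighd4 made up 7.48% ± 2.74 and 8.65% ± 2.71 in PBS mice (difference -1.18 points, exact p = 0.562, and -0.351 without PBS mouse 2 or -2.37 without PBS mouse 6) and 8.68% ± 1.97 and 9.29% ± 1.87 in UPEC mice (difference -0.614 points, exact p = 1.00). By name, Ighd3-2 made up 5.24% of extravascular and 3.98% of intravascular clonotypes in PBS mice, Ighd3-3 made up 2.52% and 3.42%, and Ighd3-1 made up 1.79% and 2.27%. In UPEC mice they made up 3.44% and 3.87%, 1.67% and 2.38%, and 2.12% and 2.80%, so Ighd3-2 had the higher mean outside the vessels in PBS mice and inside them in UPEC mice. Across all D segments with at least 10 clonotypes, 0% of 20 segments in PBS mice and 11.1% of 18 in UPEC mice moved in the same direction in every mouse, and none of the 4 member names was among them. No D segment passed the exact signed-rank test after Benjamini-Hochberg adjustment, nor at an unadjusted p under 0.05, in PBS mice (lowest adjusted p = 0.750) or in UPEC mice (lowest adjusted p = 0.482). Over the 22 libraries, the D segments whose share of clonotypes ran most like that of Ighd3 were Ighd2-10 (Spearman's rho 0.50) and Ighd2-13 (0.48), and those most like Ighd4 were Ighd3-3 (0.53) and Ighd2-9 (0.46), as a description over libraries that pair within mice. Ighd2-9 had only 15 clonotypes, each counted once per mouse, so its rho rests on very few.

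Single large clonotypes held much of the members' sequences outside the vessels. The largest Ighd3 clonotype held 65 of 86 extravascular Ighd3 sequences in PBS mouse 1, 142 of 188 in PBS mouse 4, 147 of 267 in PBS mouse 5 and 82 of 237 in PBS mouse 6. Across the 6 extravascular PBS libraries it held 34.6 to 75.6% of the family's sequences, and across their 6 intravascular libraries 8.33 to 18.4%, so the ranges did not overlap. In the larger Ighd1 family the same shares were 10.4 to 56.8% and 2.31 to 9.77%, which did not overlap either, and in Ighd2 they were 15.3 to 39.4% and 2.60 to 59.8%. The largest clonotype of a whole PBS library held 7.23 to 24.5% of all sequences outside and 1.25 to 37.3% inside the vessels. These ranges overlapped, with medians of 21.0% and 3.80%. Over all sequences these PBS libraries held 4.29 sequences per clonotype outside and 1.51 inside the vessels, against 5.24 and 1.47 for Ighd3 and 3.14 and 1.35 for Ighd4. The step in sequences per clonotype was thus present over the whole libraries. In UPEC mice the Ighd3 ranges were 19.0 to 33.3% and 5.88 to 29.8%, and they overlapped. The largest Ighd4 clonotype held 14.8 to 58.3% of that family's sequences in extravascular and 6.25 to 31.6% in intravascular libraries of PBS mice. These shares are a description, with no test, and extravascular PBS libraries were also the deepest. Member clonotypes with 1 sequence were nonetheless the majority in each group, from 78.2% of Ighd3 clonotypes in the extravascular libraries of UPEC mice to 85.5% in their intravascular libraries, as they were with other D segments (80.3 to 85.3%). Clonotypes with 20 or more sequences numbered 9 of 174 for Ighd3 and 4 of 139 for Ighd4 in extravascular PBS libraries, and 0 of 185 and 0 of 168 in intravascular PBS libraries. With other D segments they numbered 53 of 1512 (3.51%) and 2 of 1509 (0.133%), against 5.17% for Ighd3 and 2.88% for Ighd4 outside the vessels. In UPEC mice there were 1 of 101 and 3 of 112 in extravascular and 3 of 152 and 0 of 152 in intravascular libraries, against 30 of 1063 and 6 of 1305 with other D segments.

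**Figure D3:**
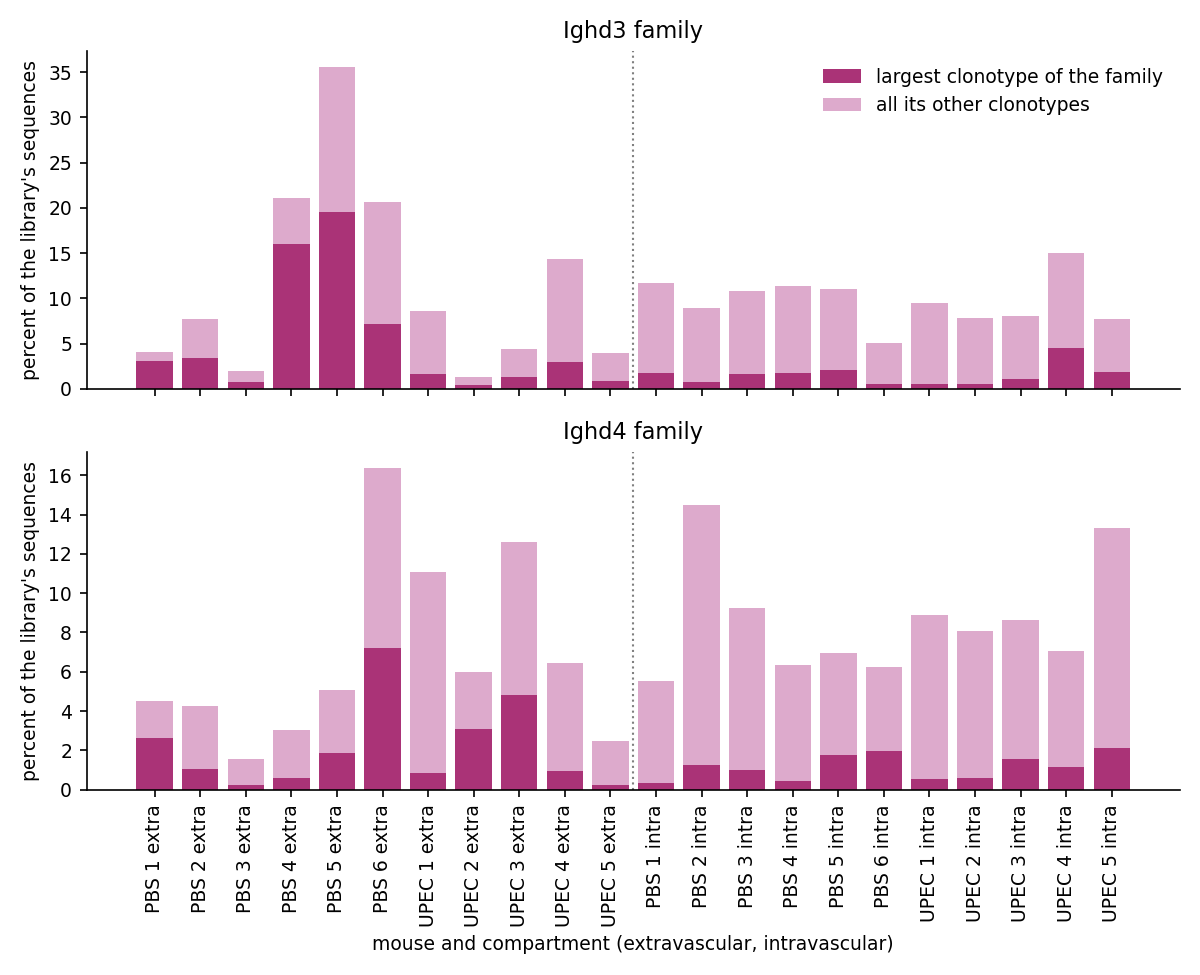
Percent of each library's sequences (vertical axis) that belonged to the Ighd3 (top) or Ighd4 (bottom) family, split into the family's largest clonotype in that library (dark) and all its other clonotypes (light). Extravascular libraries are left and intravascular libraries right of the dotted line, labelled by treatment and mouse. The dark part reaches 19.6% of sequences in PBS mouse 5 and 16.0% in PBS mouse 4 for Ighd3, and 7.23% in PBS mouse 6 for Ighd4.

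The 3 clonotypes with the most sequences in each family are shown as the largest clones among the members. Each line gives a junction from the conserved cysteine codon to the conserved tryptophan codon, 5′ to 3′, with the D-REGION in capitals.
PBS mouse 5 extravascular, Ighv3-8 Ighd3-3 Ighj1: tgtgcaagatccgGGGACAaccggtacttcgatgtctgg
PBS mouse 4 extravascular, Ighv3-1 Ighd3-2 Ighj4: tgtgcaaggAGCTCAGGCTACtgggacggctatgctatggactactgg
PBS mouse 5 extravascular, Ighv3-8 Ighd3-1 Ighj4: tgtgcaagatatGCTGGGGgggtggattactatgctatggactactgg
PBS mouse 6 extravascular, Ighv3-1 Ighd4-1 Ighj2: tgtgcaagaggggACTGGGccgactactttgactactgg
PBS mouse 1 extravascular, Ighv12-3 Ighd4-1 Ighj1: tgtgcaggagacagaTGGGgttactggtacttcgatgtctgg
UPEC mouse 3 extravascular, Ighv12-3 Ighd4-1 Ighj1: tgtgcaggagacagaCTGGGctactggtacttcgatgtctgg
Each of the 6 was found in 1 library. The first held 178 sequences and 1472 reads, 23.7% of its library, and its junction was not given 1 D name throughout, since 147 of its sequences were assigned Ighd3-3 and 31 were assigned Ighd2-13. Its D-REGION under the Ighd3-3 name is 6 nt long. The second held 142 sequences, 16.0% of its library, with 12 nt of Ighd3-2 and 9 N nucleotides. The third held 83 sequences, 11.1% of its library, with a 7-nt Ighd3-1 match that is not found exactly in the GRCm38 segment. The largest Ighd4 clonotype held 83 sequences, 7.23% of its library, with 6 nt of Ighd4-1 and 6 N nucleotides. The other two Ighd4 clonotypes, with 56 and 53 sequences, used Ighv12-3, had a CDR3 of 36 nt and carried 4 and 5 nt of Ighd4-1, with 2 and 0 N nucleotides. They came from a PBS and a UPEC mouse and differed from each other only around the D-REGION.

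Few member clonotypes were found in more than 1 mouse. Of 1171 distinct member junctions with their V and J segments, 4 (0.342%) occurred in 2 mice and none in more, against 43 of 5239 (0.821%) of clonotypes with other D segments, which reached up to 11 mice. The 4 are shown because they are the only members found in more than 1 animal.
UPEC mice 3 and 4, Ighv12-3 Ighd3-1 Ighj2: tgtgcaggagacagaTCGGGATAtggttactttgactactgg
UPEC mice 1 and 4, Ighv12-3 Ighd3-2 Ighj1: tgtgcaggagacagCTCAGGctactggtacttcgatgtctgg
PBS mice 1 and 4, Ighv5-17 Ighd3-3 Ighj3: tgtgcaaggAGGGggtttgcttactgg
PBS mice 4 and 5, Ighv5-6 Ighd4-1 Ighj3: tgtgcaagacTAACTGggtttgcttactgg
Of the 4, 3 have no N nucleotides, and the first has 4. Their D-REGIONs are 8, 6, 4 and 6 nt long. That of the first is not found letter for letter in the GRCm38 Ighd3-1 segment, and that of the third could not be checked. The first had 5 sequences in UPEC mouse 3 and 9 and 8 in the 2 libraries of UPEC mouse 4, and the second had 1 in UPEC mouse 1 and 21 in UPEC mouse 4. The third had 1 in each mouse, and the last had 4 in PBS mouse 4 and 1 in PBS mouse 5. Carry-over of sequences between libraries was not tested. Both compartments of the same mouse shared 8 of 1175 member clonotypes (0.681%), against 65 of 5324 with other D segments (1.22%). No test was run on these counts.

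Within mice, clonotypes of both families had a shorter mean CDR3 than the pool of all clonotypes with other D segments. Means were taken per mouse over the clonotypes of both its libraries. The CDR3 of Ighd3 clonotypes averaged 32.9 nt ± 1.36 (SD, n = 11 mice), that of Ighd4 clonotypes 32.0 nt ± 0.546 and that of all others 37.1 nt ± 0.665. Ighd3 means ran from 31.5 to 35.8 nt and Ighd4 means from 31.3 to 33.1 nt, and those of the other D segments from 35.8 to 38.0 nt. The CDR3 was shorter in 11 of 11 mice for both families, by 4.19 nt ± 1.64 for Ighd3 and by 5.15 nt ± 0.816 for Ighd4. The CDR3 contains the D-REGION, which the D name bounds and which was 2.72 nt shorter for Ighd3 and 3.64 nt shorter for Ighd4, so these lengths are not independent of how the members were chosen and are given as a description, with no test. In the germline, Ighd3-1 (17 nt) and Ighd3-2 (16 nt) are about as long as Ighd2-3, Ighd2-4 and Ighd2-5 (17 nt each), while Ighd1-1 has 23 nt. The mean D-REGION was 11.1 nt for Ighd3-2, 6.40 nt for Ighd3-1 and 6.42 nt for Ighd3-3, against 11.3 nt for the Ighd1 and Ighd2 families. Over 21 D segments each set against all the rest, 42.9% had a shorter CDR3 in every mouse that held them but at most 1, so several other D segments shared this direction. The Ighd3 difference was smaller without its short D-REGIONs. It was -2.62 nt, shorter in 10 of 11 mice, when D-REGIONs under 8 nt were counted as no D, and -2.39 nt, shorter in 9 of 11 mice, when each sequence counted once. The Ighd4 difference lay between -6.65 and -4.13 nt under all alternatives.

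By name, mean CDR3 length was 30.7 nt for Ighd3-1, 36.2 nt for Ighd3-2, 30.2 nt for Ighd3-3 and 32.0 nt for Ighd4-1. Ighd3-3 and Ighd3-1 had the shortest and the next shortest mean of 21 D segments, while Ighd3-2 ranked 16 from the shortest. Ighd5-5 with 31.1 nt, Ighd2-14 with 31.3 nt, Ighd1-3 with 31.4 nt and Ighd5-1 and Ighd6-3 with 31.8 nt each also lay below Ighd4-1. The Ighd3 family thus held clonotypes of unlike length under 1 family name. A CDR3 of 27 nt or less was found in 21.3% of Ighd3 and 24.4% of Ighd4 clonotypes, against 9.50% of the others. A CDR3 of 45 nt or more was found in 4.43% and 1.59%, against 18.0%. Beside the D-REGION and the N nucleotides, the V, J and P nucleotides of the CDR3 together were 0.604 and 0.912 nt fewer, as means over mice with no test.

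Members also carried somewhat fewer N nucleotides, which did not pass adjustment. N nucleotides lie between the stretches assigned to V, D and J, so their number is not independent of how the D-REGION was matched. The tests do not account for this. Ighd3 clonotypes had 4.92 ± 0.834 N nucleotides, Ighd4 clonotypes 5.18 ± 0.778 and others 5.78 ± 0.316 (SD, n = 11 mice). Both families were lower in 10 of 11 mice, by 0.865 ± 0.831 for Ighd3 and by 0.602 ± 0.722 for Ighd4 (exact signed-rank p = 0.0186 and adjusted p = 0.204 for each), and 19.0% of 21 D segments were lower in every mouse that held them but at most 1. The exceptions were PBS mouse 4 for Ighd3 (6.96 against 5.70) and PBS mouse 5 for Ighd4 (6.61 against 5.72). The Ighd3 difference was -1.08 without PBS mouse 4 and the Ighd4 difference -0.752 without PBS mouse 5. Each would then pass adjustment, but leaving out the 1 mouse that goes the other way fixes the p at the smallest that 10 mice allow, so this is no support. With D-REGIONs under 8 nt counted as no D, the differences were -0.577 (exact p = 0.147) and 0.00336 (exact p = 0.638). With at least 3 reads the Ighd4 difference was -0.433 (exact p = 0.123), and with exact D-REGIONs only it was -1.12 (exact p = 0.000977, adjusted p = 0.0143). Keeping exact D-REGIONs also removed every D name without a GRCm38 segment from the other D segments. Counted per sequence, both differences changed sign, to 0.272 and 0.237. The Ighd3 difference lay at the V to D joint, called N1, with 2.20 against 3.24 nucleotides and lower in 10 of 11 mice. At the D to J joint, called N2, Ighd3 had 2.72 against 2.55 and was higher in 6 of 11 mice. Ighd4 had 2.98 in N1 and 2.20 in N2, lower than the others in 9 of 11 mice at each joint. Ighd3-1 had 1.65 N1 nucleotides per clonotype, the fewest of 21 D segments. Clonotypes with no N nucleotide at all made up 13.5% of Ighd3-1, 11.6% of Ighd3-3, 9.54% of Ighd4-1 and 5.88% of Ighd3-2 clonotypes, against 7.09% for the Ighd1 and Ighd2 families.

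**Figure D4:**
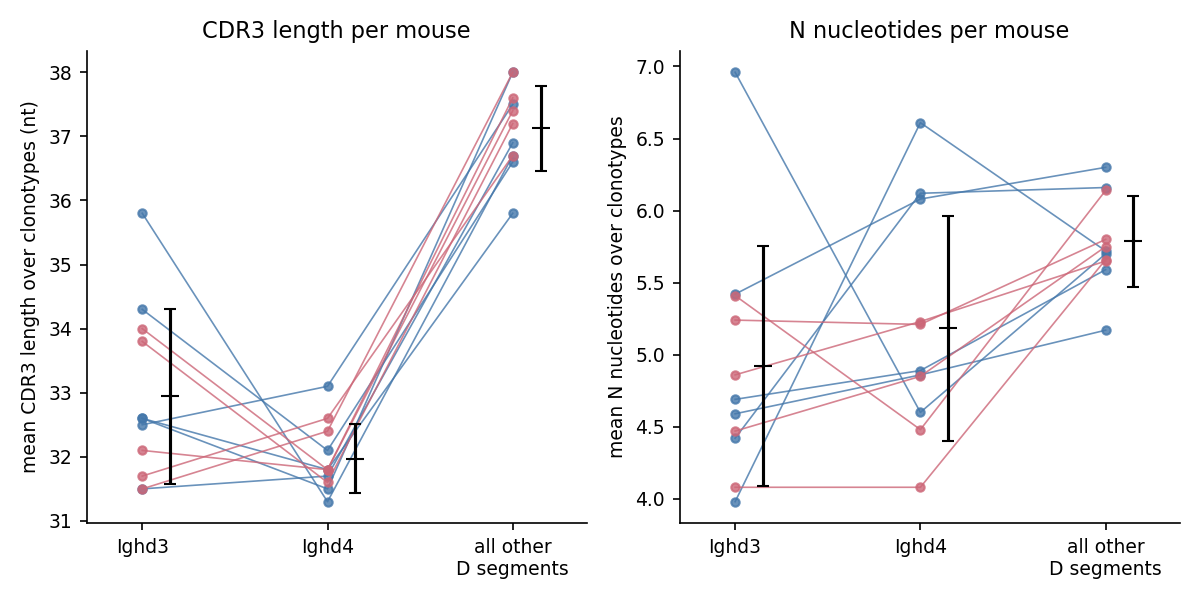
Mean CDR3 length in nt (left) and mean number of N nucleotides (right) over the clonotypes of each mouse, for Ighd3, Ighd4 and all other D segments. Points of 1 mouse are joined (PBS blue, 6 mice; UPEC red, 5 mice), black bars give the mean and SD of 11 mice, and the vertical axes do not start at 0. In every mouse both families lie below the pooled other D segments in CDR3 length.

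Neither N nucleotides nor lengths of the members passed a test between compartments or treatments. In PBS mice, Ighd3 clonotypes had 5.42 ± 1.96 N nucleotides in extravascular and 4.35 ± 0.537 in intravascular libraries (SD, n = 6; difference 1.07 ± 2.13, exact signed-rank p = 0.438). The highest of these means, that of extravascular cells in PBS mouse 4, was 9.07, and the next was 5.64. Without that mouse the difference was 0.306. Their CDR3 measured 34.2 nt ± 2.57 and 32.4 nt ± 0.896 (difference 1.82 nt ± 2.43, exact p = 0.156), and their D-REGION 8.57 and 8.43 nt. This CDR3 difference lay between 0.336 and 3.54 nt under all alternatives. In UPEC mice the Ighd3 differences were -0.0561 N nucleotides and -0.663 nt of CDR3 (n = 5). The UPEC CDR3 difference was -2.17 nt with D-REGIONs of at least 8 nt and 0.363 nt without UPEC mouse 2. For Ighd4, the CDR3 measured 31.0 nt ± 1.78 and 32.4 nt ± 1.13 in PBS mice (difference -1.37 nt, exact p = 0.312, and -0.384 nt without PBS mouse 3) and 31.9 nt ± 1.06 and 32.0 nt ± 0.884 in UPEC mice (exact p = 1.00). The Ighd4 D-REGION measured 7.42 and 7.67 nt in PBS mice and 7.70 and 7.31 nt in UPEC mice. Between UPEC and PBS mice, extravascular means of the 3 measures gave exact Mann-Whitney p between 0.329 and 0.792 for the families. A D-REGION under 8 nt was found in 46.0% of extravascular and 50.3% of intravascular Ighd3 clonotypes in PBS mice, and in 46.5% and 53.3% in UPEC mice.

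The J segments joined to the members are given for each family beside all other D segments, and the families were not tested against each other. Ighd3 clonotypes used Ighj1 in 14.0% ± 9.44 of cases per mouse, against 25.5% ± 4.14 for other D segments, 11.5 points fewer and lower in 10 of 11 mice (exact signed-rank p = 0.0244, adjusted p = 0.215). PBS mouse 2 was the exception, with 38.2% against 20.3%, and without it the difference was -14.5 points. It would then pass adjustment, which again follows from leaving out the 1 mouse that goes the other way. Of 21 D segments, 23.8% had a lower Ighj1 share than the rest in every mouse that held them but at most 1. By the exact test the difference was -16.5 points (adjusted p = 0.0215) when only exact D-REGIONs were kept and -10.9 points (adjusted p = 0.0286) without Ighv11-2 and Ighv12-3, both chosen after seeing the data. Keeping exact D-REGIONs dropped all Ighd3-3 clonotypes and every other D name without a GRCm38 segment, so both sides of that comparison changed in make-up. The Ighj1 difference was -17.4 points (adjusted p = 0.0645) with D-REGIONs under 8 nt counted as no D, -10.5 points (adjusted p = 0.344) with at least 3 reads and -7.27 points, lower in 8 of 11 mice (exact p = 0.320, adjusted p = 0.724), when each sequence counted once. Ighd3-2 had the lowest Ighj1 share of the 3 names, at 10.0% of clonotypes, with 19.6% for Ighd3-1 and 16.9% for Ighd3-3. Of 21 D segments only Ighd5-1 and Ighd5-5, with 18 and 22 clonotypes, were lower than Ighd3-2. Ighd3-2 instead used Ighj3 in 28.7% of clonotypes, a share exceeded only by Ighd2-4 with 28.8%.

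Ighd4 clonotypes used Ighj1 in 25.9% ± 7.31 of cases per mouse, 0.339 points from the other D segments and higher in 6 of 11 mice (exact p = 0.898). They used Ighj2 in 38.9% ± 3.61 against 30.2% ± 3.92, higher in 11 of 11 mice, and Ighj4 in 15.1% ± 4.67 against 25.2% ± 2.82, lower in 11 of 11 mice. Over all clonotypes the Ighj4 share of Ighd4-1, at 15.4%, was the lowest of 21 D segments, and its Ighj2 share of 38.9% was exceeded by Ighd2-13 and Ighd6-3. Of the 10 shares of J segments and V groups taken for each family, 3 went the same way in all 11 mice for Ighd4 and 0 for Ighd3. The 3 were Ighj2, Ighj4 and the Ighv11 family, which was nearly absent from Ighd4 clonotypes. The same count over other D segments is not given, so whether 3 of 10 is unusual cannot be read from it. These shares beyond Ighj1 were not tested.

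**Figure D5:**
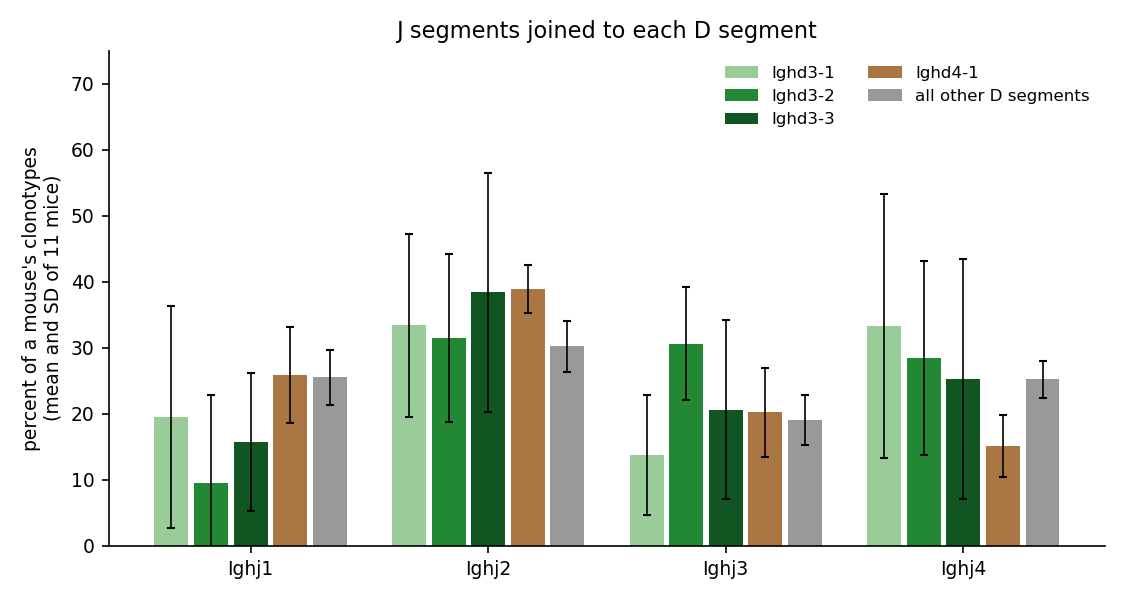
Percent of a mouse's clonotypes (vertical axis) that joined each J segment (horizontal axis), for the 3 Ighd3 names, Ighd4-1 and all other D segments. Bars give the mean and error bars the SD of 11 mice. Ighj1 is low for Ighd3-2 and Ighj4 is low for Ighd4-1, at 15.1% against 25.2% for other D segments.

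The Ighv3 family was the leading group of V partners of the members, in 50.3% ± 8.12 of Ighd3 and 49.6% ± 11.6 of Ighd4 clonotypes per mouse, as it was of the others with 41.8% ± 4.39 (higher in 8 and 10 of 11 mice). The Ighv1 family gave 20.9% and 18.7% against 26.3%, and the Ighv5 family 12.1% and 14.4% against 12.1%. For Ighd3 the leading V segments were Ighv3-1 with 115 of 609 clonotypes (18.9%), Ighv3-8 with 83, Ighv3-6 with 78, Ighv12-3 with 43 and Ighv1s22 with 30. For Ighd4 they were Ighv3-8 with 105 of 566 (18.6%), Ighv3-1 with 78, Ighv3-6 with 73, Ighv12-3 with 45 and Ighv5-17 with 30. Ighv3-1 took 12.0% and Ighv3-8 took 14.2% of clonotypes with other D segments. Ighv1s22 divided the members by name, with 9.89% of Ighd3-2 clonotypes per mouse, 0.826% of Ighd3-1, 1.43% of Ighd3-3 and 1.22% of Ighd4, against 7.52% of the others. The Ighv1s22 clonotypes with Ighd3 had a mean CDR3 of 41.0 nt and a median D-REGION of 13.0 nt, the longest among the named partners.

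Ighv11-2 and Ighv12-3, which are known from phosphatidylcholine-binding B-1 cells, took different places among the members. Ighv11-2 was joined to Ighd3 in 4 and to Ighd4 in 1 of its 117 clonotypes, while the members made up 17.6% of all clonotypes. The Ighv11 family took a mean of 0.211% of Ighd4 clonotypes per mouse, against 2.09% of the others, lower in 11 of 11 mice. That direction rests on so few clonotypes that it says little, and it was not tested. Ighv12-3 made up 7.06% of Ighd3 and 7.95% of Ighd4 clonotypes, near its 8.21% among the others. Its CDR3 was 36 nt in 43 of 43 Ighd3 and 42 of 45 Ighd4 clonotypes, and its Ighd4 clonotypes had a mean of 2.93 N nucleotides and a median D-REGION of 6 nt. In PBS mice, Ighv12-3 made up 24 of 174 Ighd3 clonotypes (13.8%) in extravascular and 4 of 185 (2.16%) in intravascular libraries, and for Ighd4 it made up 14 of 139 (10.1%) and 8 of 168 (4.76%). Clonotypes with other D segments had the same order, with 212 of 1512 (14.0%) and 42 of 1509 (2.78%). In UPEC mice it made up 10 of 101 (9.90%) and 6 of 152 (3.95%) for Ighd3 and 12 of 112 (10.7%) and 13 of 152 (8.55%) for Ighd4, against 134 of 1063 (12.6%) and 65 of 1305 (4.98%) with other D segments. These counts pool mice and carry no test.

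Reads of the Igha constant region, the IgA heavy chain, were found for few member sequences. Sequences with at least 1 Igha read numbered 5 of 1699 for Ighd3 and 7 of 1166 for Ighd4, from 4 of 620 (0.645%) and 2 of 567 (0.353%) clonotypes. They numbered 114 of 5218 for Ighd1 and 172 of 8038 for Ighd2, from 26 of 2403 (1.08%) and 32 of 2773 (1.15%) clonotypes, so the families lay closer by clonotype than by sequence. The difference was not tested, since sequences of 1 clone are not independent.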

How the data were processed

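BCR sequencing of Igh transcripts was performed by the authors on sorted kidney B cells with V family primers and barcoded reverse transcription primers. The authors merged reads, formed a consensus per barcode, kept sequences with more than 1 read and annotated V, D, J, P and N regions with IMGT/V-QUEST. The deposited tables hold nucleotides and 1-based positions per sequence, with no further normalization, and no genome build was used for them. Germline segments were read from GRCm38 with GENCODE annotation. N nucleotides are the sum of the N1 and N2 regions. Sequences sharing a junction, V and J formed a clonotype, given its most frequent D name. Every sequence had at most 1 D name. Compartments were compared within mice by exact two-sided Wilcoxon signed-rank tests, treatments by exact Mann-Whitney tests and the change between them by exact permutation (scipy), with Benjamini-Hochberg adjustment over 44 tests (2 of them, on CDR3 length against other D segments, are not given, since the D name bounds part of that length) and a threshold of 0.05. The smallest p is 0.03125 with 6 pairs, 0.0625 with 5 and 0.004329 for 6 against 5 mice. The pairs come from the labels, which give both compartments of a mouse the same number. The test across D segments was tried on simulated data, and the outcome is not given here. D names, the 5 V segments with the most clonotypes, Ighv11-2 and Ighv12-3, all J segments, the 3 clonotypes with the most sequences and up to 3 in the most mice were named for each family, with the 2 D segments most alike in share. Members and lists were chosen with earlier results of these data known. In 3 sequences the given positions did not add up, and the N and P regions were used instead.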

Additional observations from a re-analysis of the deposited data

Results flagged for a closer look

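In 4 of 40 groups of libraries, 1 value stood apart from the rest by Dixon's test, where chance alone gives about 1 in 20. The share of Ighd3 by sequence was 15.0% among intravascular cells of UPEC mouse 4, and the next of 5 was 9.47%. Mean N nucleotides of Ighd3 clonotypes were 9.07 among extravascular cells of PBS mouse 4, and the next of 6 was 5.64. The share of Ighd4 by sequence was 16.4% among extravascular cells of PBS mouse 6, and the next of 6 was 5.07%. The share of Ighd4 by clonotype was 13.9% among intravascular cells of PBS mouse 2, and the next of 6 was 8.96%. In that library of PBS mouse 6, 83 of the 188 Ighd4 sequences belonged to 1 clonotype.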

How the results depend on the processing

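The CDR3 differences of Ighd4 and Ighd3 from other D segments kept their direction under every alternative. All differences between compartments and treatments stayed above the threshold of 0.05 for the adjusted p, and many lay near 0 and changed sign. Between compartments the design leaves little room for anything else, since 5 pairs cannot give a p below 0.0625 nor 6 pairs one below 0.03125. Staying above the threshold therefore shows no stability of the compartment differences. Between treatments the limit is lower, since the exact Mann-Whitney test of 6 against 5 mice allows a p of 0.004329. Differences below are extravascular minus intravascular (compartments), UPEC minus PBS (treatments) or family minus other D, in percentage points, nt or N nucleotides, and those that changed sign or call are given, with untested lengths that moved. With at least 3 reads, Ighd3 clonotype share between compartments in PBS was 0.451, Ighd3 D-REGION between compartments in PBS was -0.122, Ighd3 D-REGION between treatments outside vessels was 0.187 and Ighd4 clonotype share change with challenge was -1.02. With D-REGIONs of at least 8 nt, Ighd3 sequence share between treatments inside vessels was 0.448, Ighd3 clonotype share between compartments in PBS was 0.324, Ighd3 N between compartments in UPEC was 0.102, Ighd3 D-REGION between compartments in UPEC was -0.638, Ighd3 CDR3 against other D was -2.62, Ighd3 D-REGION against other D was -0.816, Ighd4 sequence share between treatments inside vessels was -0.258, Ighd4 clonotype share between treatments inside vessels was -0.344, Ighd4 N between compartments in PBS was 0.289, Ighd4 D-REGION between compartments in PBS was 0.174 and Ighd4 N against other D was 0.00336. Tested unpaired, with no replicate block, Ighd3 N against other D was -0.865 (exact Mann-Whitney, adjusted p = 0.0154) and Ighd3 Ighj1 share against other D was -11.5 (exact Mann-Whitney, adjusted p = 0.0112). Weighted by reads, Ighd4 sequence share change with challenge was -0.257. With each sequence counted once, Ighd3 N between compartments in UPEC was 0.132, Ighd3 D-REGION between compartments in PBS was -0.187, Ighd3 D-REGION between compartments in UPEC was -0.116, Ighd3 D-REGION between treatments outside vessels was 0.271, Ighd3 N against other D was 0.272, Ighd3 CDR3 against other D was -2.39, Ighd4 N between treatments outside vessels was 0.147, Ighd4 CDR3 between compartments in UPEC was 0.399, Ighd4 N against other D was 0.237 and Ighd4 D-REGION against other D was -3.01. With exact GRCm38 D-REGIONs only, Ighd3 sequence share between treatments inside vessels was 0.120, Ighd3 clonotype share between compartments in PBS was 0.458, Ighd3 D-REGION between compartments in PBS was -0.715, Ighd3 Ighj1 share against other D was -16.5, Ighd4 N between compartments in UPEC was 0.0308, Ighd4 N between treatments outside vessels was 0.417, Ighd4 CDR3 between compartments in UPEC was 0.122, Ighd4 N against other D was -1.12, Ighd4 D-REGION against other D was -4.89 and Ighd4 Ighj1 share against other D was -3.76. Without Ighv11-2 and Ighv12-3, Ighd3 sequence share between treatments inside vessels was 0.114, Ighd3 Ighj1 share against other D was -10.9, Ighd4 N between compartments in UPEC was 0.0714, Ighd4 N between treatments outside vessels was 0.120 and Ighd4 Ighj1 share against other D was -0.266. The last 2 alternatives were chosen after seeing the data. Keeping exact GRCm38 D-REGIONs counted every D name without a GRCm38 segment as no D, Ighd3-3 among them, so the groups compared changed in make-up. The replicate block is the pairing of libraries by mouse, and leaving it out changed no other call. Restricting to sequences with a single D name changed nothing, since none had more. Leaving out the most frequent clonotype of each library, counting over clonotypes with an assigned D, or counting all nucleotides between V, D and J changed no sign or call of a tested value. Sizes changed elsewhere too. With at least 3 reads, Ighd4 clonotype share between compartments in UPEC went from -0.614 to -2.83 and Ighd4 N there from -0.169 to -1.04 (both lower in 5 of 5 mice, exact p = 0.0625), and Ighd4 CDR3 between compartments in PBS from -1.37 to -2.27 nt (shorter in 6 of 6 mice, exact p = 0.0312, adjusted p = 0.344). With D-REGIONs of at least 8 nt, Ighd3 sequence share between treatments outside vessels went from -8.64 to -2.63. Leaving out each mouse in turn gave -1.58 to 0.256 for Ighd3 sequence share between treatments inside vessels, -1.12 to 1.23 for Ighd3 clonotype share between compartments in PBS, -0.503 to 0.0772 for Ighd3 N between compartments in UPEC, -0.993 to 0.0644 for Ighd3 N between treatments outside vessels, -1.22 to 0.363 for Ighd3 CDR3 between compartments in UPEC, -0.0378 to 0.412 for Ighd3 D-REGION between compartments in PBS, -0.355 to 0.225 for Ighd3 D-REGION between treatments outside vessels, -1.08 to -0.778 for Ighd3 N against other D, -14.5 to -10.5 for Ighd3 Ighj1 share against other D, -2.83 to 0.869 for Ighd4 sequence share between compartments in UPEC, -0.718 to 3.35 for Ighd4 sequence share change with challenge, -1.34 to 0.475 for Ighd4 clonotype share between compartments in UPEC, -0.0149 to 1.68 for Ighd4 clonotype share between treatments inside vessels, -0.263 to 1.75 for Ighd4 clonotype share change with challenge, -0.956 to 0.250 for Ighd4 N between compartments in PBS, -0.480 to 0.233 for Ighd4 N between compartments in UPEC, -0.998 to 0.0799 for Ighd4 N between treatments outside vessels, -0.438 to 0.560 for Ighd4 CDR3 between compartments in UPEC, -0.516 to 0.0865 for Ighd4 D-REGION between compartments in PBS, -0.0676 to 0.527 for Ighd4 D-REGION between treatments outside vessels, -0.752 to -0.497 for Ighd4 N against other D and -0.639 to 1.50 for Ighd4 Ighj1 share against other D. The N and Ighj1 differences from other D segments passed the threshold without PBS mouse 4 (Ighd3 N), PBS mouse 5 (Ighd4 N) and PBS mouse 2 (Ighd3 Ighj1), in each case the only mouse with the opposite sign, so that passing was fixed by the mouse left out. The cause of the other changes was not tested. Libraries of 244 to 2134 sequences and 5 or 6 mice a group limit what can be called.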
